A study of Mus musculus with 2 samples.

Results

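The M2-like R2 macrophages are the cells that the authors' table of cells assigns to the cluster of that name, and every such cell of both libraries was taken. There were 624 of 7314 cells, with 456 cells in the WT library and 168 cells in the Vsir-/- library. R2 is the study's name for macrophages that infiltrate the kidney, as opposed to the kidney-resident R1 macrophages. The cells came from kidneys of C57BL/6 mice aged 8 weeks with nephrotoxic nephritis, a model in which antibodies of another species bind to the glomeruli. Per the labels, both genotypes were given sheep IgG (200 μg, with complete Freund's adjuvant) and, 4 days afterwards, sheep nephrotoxic serum by vein at 2 μl/g, for which the study's methods give another dose, and there was no uninjured group. Vsir-/- mice lack Vsir in all cells, so that lymphocytes and other cells of the kidney carried the deletion together with the macrophages.

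Classical monocytes leave the blood through the chemokine receptor Ccr2 and carry Ly6c2. In injured tissue they lose Ly6c2 and turn into macrophages, many of which gain MHC class II, complement C1q, and lipid-handling genes. Alternative activation, called M2, is the state in which macrophages make products such as the mannose receptor and chitinase-like proteins, and it is associated with repair. Vsir encodes VISTA, an inhibitory surface protein of myeloid cells and T cells.

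Each genotype was 1 library, for which the number of mice was not given in the sources used here, so no test of genotype was possible, and all differences below are differences between 2 libraries. UMIs were summed over the cells of the cluster in each library and expressed as CPM, which are UMIs per 1000000 UMIs of those cells. Log2 ratios are Vsir-/- over WT with 0.5 UMIs added to each sum, and in counts of genes, higher and lower mean a log2 ratio of at least 1 in size among genes with 50 or more UMIs in the cluster. Intervals are at the 95% level and cover counting error only, not the spread between mice. The cluster held 4392986 UMIs in WT and 1675190 UMIs in Vsir-/-, with medians of 9699 and 10074 UMIs per cell and of 2772 and 2853.5 genes per cell. The medians were thus close, while the 10th percentiles were 989 and 2642 UMIs, and the medians were greater than in R1 (4868.5 and 5921 UMIs) and in the other infiltrating cluster, Other R2 (5210 and 6093 UMIs).

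The libraries stood apart in 4 respects that go with the genotype. The labels give a CD45+ sort for WT and all kidney cells for Vsir-/-, whereas the study's methods name CD45+ cells without such a difference, so the preparation is uncertain. In the Vsir-/- cluster, a list of 36 renal tubule genes summed to 2483 CPM with 1 gene at 0, against 822 CPM with 25 genes at 0 in WT. Napsa (716 CPM) made up most of the WT sum, and without Napsa and Ass1 the other 34 genes summed to 1782 CPM in Vsir-/- and 24.4 CPM in WT, and to 7403 CPM in Vsir-/- B cells. Cd79a, a B cell gene, was found in 99.7% of WT and 50% of Vsir-/- cells of the B cell cluster. The Vsir-/- B cells, used below for comparison and subtraction, are thus an uncertain measure of RNA shared by all droplets. Xist had 0 UMIs in the whole WT library and 16405 in the Vsir-/- library, while the Y-linked Eif2s3y had 2150 and 0 UMIs, although the methods state that male mice were used. In gene names, 1053 gene symbols had UMIs in the WT library alone and 4827 in the Vsir-/- library alone, and 134 pairs of these were older and newer names of the same gene in RefSeq. Minos1 with 749 UMIs in WT and Micos10 with 381 UMIs in Vsir-/- are such a pair, whose merged log2 ratio was 0.42. Lastly, the WT cluster carried more transcripts of other leukocytes. Among 10 tested neutrophil genes 8 were lower in Vsir-/-, as were 7 of 7 T cell, 9 of 9 B cell, and 7 of 7 NK cell genes, against 5.47% of all genes. Of these, 5, 5, 6, and 4 in that order reached the minimum of 50 UMIs only through the WT library and so had to be lower. Sex, preparation, gene annotation, and genotype cannot be told apart in these libraries. 5 cell barcodes occurred in both libraries, and 0 of them belonged to a cell of the cluster.

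The deletion itself was visible. Vsir had 1207 UMIs in 339 of 456 WT cells and 1 UMI in 1 of 168 Vsir-/- cells, corresponding to 275 CPM (260 to 291) and 0.597 CPM (0.0151 to 3.33). Within the WT library the level was close to that of R1 (235 CPM) and above that of Other R2 (99.1 CPM) and B cells (19.2 CPM).

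The markers that define the cluster held in both libraries. Lyz2, the lysozyme of myeloid cells, reached 23253 CPM in WT and 18809 CPM in Vsir-/-, compared with 1855 and 4236 CPM in R1 and 6895 and 7482 CPM in Other R2. Ccr2 stood at 912 CPM (884 to 941) and 931 CPM (886 to 979), and these intervals overlapped. Both values were far above those of R1 (253 and 151 CPM) and Other R2 (57.8 and 9.06 CPM). Chil3, a chitinase-like secreted protein, stood at 595 and 489 CPM and was at most 107 CPM in either of the other macrophage clusters. Neutrophils, however, held Chil3 at 289 CPM in WT and 494 CPM in Vsir-/-. F13a1, a coagulation factor subunit of monocytes, stood at 435 and 284 CPM and was at most 15.8 CPM in the other macrophage clusters. Ly6c2 stood at 2972 CPM in WT (2921 to 3023) and 1673 CPM in Vsir-/- (1612 to 1736), a log2 ratio of -0.83. Fn1, which encodes fibronectin, went the other way, with 499 CPM (478 to 520) in WT and 1466 CPM (1408 to 1525) in Vsir-/-. In all, 1 of the 6 markers was at least 2-fold higher, Fn1, and 0 were at least 2-fold lower. Since the cluster was drawn from expression, its markers describe it and test nothing.

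**Figure D1:**
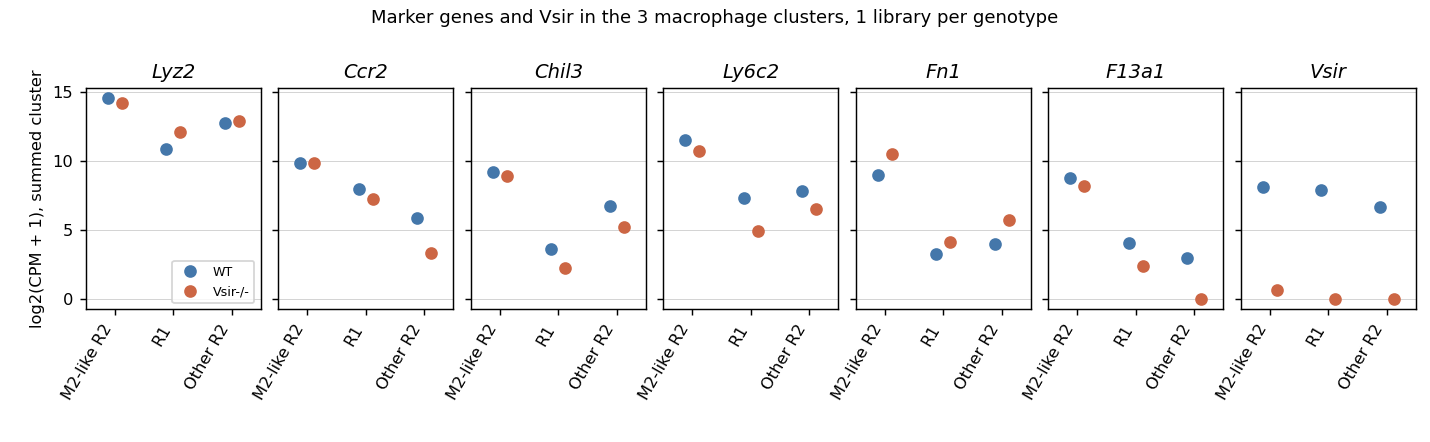
Levels of the 6 marker genes and of Vsir, as log2(CPM + 1) of the summed cells, in M2-like R2, R1, and Other R2; each point is 1 library (blue, WT; red, Vsir-/-). Ccr2, Chil3, Ly6c2, Fn1, and F13a1 were highest in M2-like R2 in both libraries, and Vsir was at or near 0 in all 3 clusters of the Vsir-/- library.

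By a rule that ranked genes by their CPM relative to the higher of R1 and Other R2, the 15 most particular genes with 100 or more UMIs included Fn1, F13a1, Chil3, Ly6c2, Vcan, Saa3, Ecm1, Prtn3, Ms4a8a, AI839979, Lmo1, Galnt9, Aldh1b1, and Stxbp6. Several belong to monocytes or to matrix: Vcan encodes versican, Prtn3 a protease that bone marrow precursors store in granules, and Ecm1 a matrix protein. Vcan stood at 176 CPM in WT and 89.5 CPM in Vsir-/-. Prtn3 stood at 56.5 and 71.6 CPM, and was found in 26.3% and 26.8% of cells. Of the 15 genes, 4 were at least 2-fold higher in Vsir-/- (among them Fn1, Saa3, and Ecm1) and 0 at least 2-fold lower, beside 5.2% and 5.47% of all genes. These are ranks within the data that made the cluster and are given as a description.

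Members of the alternative activation list differed widely in level. The list summed to 1626 CPM in WT and 2135 CPM in Vsir-/-, with 5 and 3 genes at 0 UMIs. Chil3 was its most abundant member, and Clec10a was found in 21.9% of WT and 25.6% of Vsir-/- cells. In contrast, Mrc1, the mannose receptor, had 18 UMIs in WT and 78 in Vsir-/-, or 4.10 and 46.6 CPM. Retnla had 0 and 2 UMIs, and Cd163, a scavenger receptor of M2 macrophages, had 0 UMIs in both, which allows up to 0.683 CPM in WT and 1.79 CPM in Vsir-/-. The cluster is called here by the authors' name, with Lyz2, Ccr2, Ly6c2, and Chil3 as its leading markers.

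M2-like R2 made up 8.34% of WT cells (7.62% to 9.10%) and 9.11% of Vsir-/- cells (7.84% to 10.5%), and these intervals overlapped. Of the 760 and 536 cells in the 3 macrophage clusters, it made up 60% (56.4% to 63.5%) in WT and 31.3% (27.4% to 35.5%) in Vsir-/-. The lower share among macrophages went with more R1 cells, at 2.12% of WT and 12.9% of Vsir-/- cells. Other R2 cells were also more frequent, at 3.44% and 7.10%. The labels give a different selection of cells for each library, which the methods do not, and its part in these shares was not tested.

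The composition of the cluster differed between the libraries. Each cell was thinned to 1000 UMIs, and cells were classed by at least 1 Ly6c2 UMI and by at least 2 UMIs of the MHC class II genes H2-Aa, H2-Ab1, and H2-Eb1. This kept 409 WT and 159 Vsir-/- cells and left out 47 and 9 shallower cells. Ly6c2+ MHC-II- cells, the class nearest to a fresh monocyte by these transcripts, made up 60.1% of WT cells (55.2% to 64.9%) and 36.5% of Vsir-/- cells (29.0% to 44.5%). Ly6c2- MHC-II+ cells made up 8.56% (6.03% to 11.7%) and 27.7% (20.9% to 35.3%). The intervals of these classes did not overlap. Ly6c2+ MHC-II+ cells were at 21.8% and 21.4%, and cells with neither were at 9.54% and 14.5%, and these intervals overlapped.

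Any Ly6c2 UMI was found in 81.9% of WT and 57.9% of Vsir-/- cells after thinning, and in 88.6% and 72.6% at full depth. In B cells, which lack Ly6c2, the thinned shares were 1.58% and 5.56%. MHC class II UMIs reached the limit in 30.3% and 49.1% of cells, compared with 0.152% and 0 of 50 cells among non-EM-like CD8+ T cells, which allows up to 7.11% by the exact interval. The background was thus far below the shares in M2-like R2 for both readouts, but CD8+ T cells do not measure B cell transcripts. B cells carry MHC class II, and after thinning Cd79a was found in 13.45% of WT and 0% of Vsir-/- M2-like R2 cells. The part of B cell transcripts in the MHC class II shares was not tested. The classes are ranges of a continuum rather than cell types: 82 WT and 22 Vsir-/- cells had exactly 1 Ly6c2 UMI, and 71 and 20 cells had 1 or 2 MHC class II UMIs. In R1, the Ly6c2- MHC-II+ class held 96.3% and 97.6% of cells, and in Other R2 it held 29.4% and 36.2%, with overlapping intervals in both clusters. At full depth it held 24.5% (18.5% to 31.2%) of WT and 46.6% (37.8% to 55.5%) of Vsir-/- Other R2 cells, without overlap, so the shift in Other R2 depended on the depth used.

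**Figure D2:**
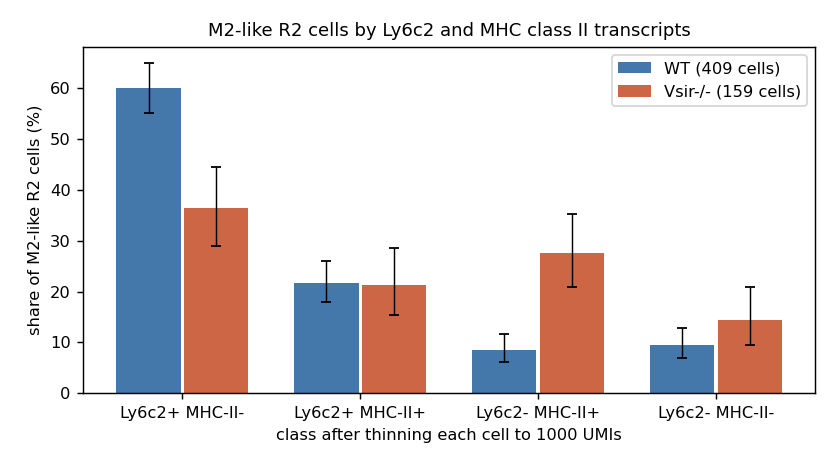
Share of M2-like R2 cells in each of 4 classes, in percent, after thinning to 1000 UMIs; bars are the libraries (409 WT cells, 159 Vsir-/- cells) and error bars are exact 95% Clopper-Pearson intervals for counting error. The Ly6c2+ MHC-II- class held 60.1% of WT and 36.5% of Vsir-/- cells, and the Ly6c2- MHC-II+ class stood at 8.56% and 27.7%.

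The cells with neither transcript after thinning differed between the libraries in the genes below, with all their UMIs counted. In the 23 Vsir-/- cells without Ly6c2 and MHC class II, Saa3 reached 5824 CPM, Fn1 4838 CPM, and C1qb 1230 CPM. In Vsir-/-, 1 cell held 977 of the 1401 Saa3 UMIs of the class, and without it the level was 1927 CPM. The 39 WT cells of that class had 254, 641, and 0 CPM of the same genes, and 1 of them held 92 of 100 Saa3 UMIs. Chil3 showed the reverse, with 466 CPM in WT and 74.8 CPM in Vsir-/-.

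Across all 7812 genes with 50 or more UMIs in the cluster, 406 (5.2%) were at least 2-fold higher and 427 (5.47%) at least 2-fold lower in Vsir-/-, with a median log2 ratio of -0.0042. Of these, 172 higher and 197 lower genes differed the same way in R1, Other R2, B cells, and neutrophils as well. After merging the paired symbols and leaving out genes with UMIs in 1 library alone, 325 (4.21%) of 7714 genes were higher and 336 (4.36%) lower, and without the genes that differed alike in all 5 clusters 231 were higher and 228 lower. Fxyd2, Igfbp7, Nme2, Fam89b, and Atp6v0c headed the ranking of higher genes without regard to lymphocyte levels, and all 5 were higher in all 5 clusters. Nme2, for example, stood at 13 and 1089 CPM in the cluster and at 5.17 and 945 CPM in B cells.

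MHC class II genes were higher in the Vsir-/- cluster. H2-Ab1, an MHC class II beta chain, stood at 566 CPM (544 to 589) in WT and 3179 CPM (3095 to 3266) in Vsir-/-, and H2-Aa, the alpha chain, at 698 and 3341 CPM. Cd74, the invariant chain, stood at 2673 and 8407 CPM, and Ciita, the master activator of these genes, at a log2 ratio of 1.24. Of 10 tested genes of the list, 7 (against 5.2% of all genes) were higher and 3 lower, with a median log2 ratio of 1.36. The 3 lower genes were H2-DMb2, H2-Oa, and H2-Ob, which B cells express, and all 3 were lower in all 5 clusters compared and reached 50 UMIs only through WT. The list's median was -0.13 in R1 and -0.50 in Other R2, where H2-Ab1 stood at 11513 and 10596 CPM and at 897 and 756 CPM. The difference between clusters was not tested.

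The higher MHC class II level came with more positive cells and with more UMIs in the positive cells. Among Ly6c2+ MHC-II+ cells, H2-Ab1 stood at 1655 CPM in WT and 5993 CPM in Vsir-/- (log2 ratio 1.86, 1.76 to 1.95). Among Ly6c2- MHC-II+ cells it stood at 2188 and 6797 CPM (log2 ratio 1.63, 1.5 to 1.78). After thinning, the median cell held 0 MHC class II UMIs in WT and 1 in Vsir-/-, and the 90th percentile was 6 and 33 UMIs. The classes use these genes, so their levels are a description. WT B cells held 30488 CPM of the MHC class II list, against 4908 CPM in the WT cluster, where Cd79a stood at 161 CPM. In the Vsir-/- cluster, Cd79a had 0 UMIs. The part of B cell transcripts in the WT levels was not tested.

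Complement and resident macrophage genes formed a further group. C1qa, C1qb, and C1qc, the chains of complement C1q, which tissue macrophages make, stood at 31.9, 33.7, and 12.5 CPM in WT and at 378, 618, and 296 CPM in Vsir-/-. C1qb was found in 16 of 456 WT and 59 of 168 Vsir-/- cells, and at least 10 C1q UMIs were found in 6 and 39 cells, or 1.32% (0.484% to 2.84%) and 23.2% (17.1% to 30.3%). In the Vsir-/- B cell cluster, C1qb stood at 83.9 CPM and was found in 20.4% of cells. B cells should lack the gene, but only 50% of the cells of that cluster had a Cd79a UMI. With 1000 UMIs per cell it was found in 22.6% of Vsir-/- M2-like R2 cells and 8.33% of Vsir-/- B cells, and in 2.44% and 0.317% of the same cells of WT. Of 14 tested complement genes, 7 (against 5.2% of all genes) were higher and 1 (against 5.47%) lower (Cd55, a complement regulator with 140 and 0 UMIs), with a median of 1.21 and medians of 0.27 in R1, 0.63 in Other R2, and 2.73 in B cells. Cd55 reached 50 UMIs only through WT and so had to be lower, and it was lower in all 5 clusters. Of 15 tested resident macrophage genes, 7 (against 5.2% of all genes) were higher and 0 lower, with a median of 0.85 and of 3.95 in B cells. After the Vsir-/- B cell profile was subtracted from the Vsir-/- sums, the medians were 1.49 for complement and 0.78 for resident macrophage genes. The complement median was 0.536 by the mean of single cells, 0.88 with a minimum of 200 UMIs, and 2.01 after thinning to 1000 UMIs per cell. R1 itself expressed C1qb at 4082 CPM in WT and 5044 CPM in Vsir-/-.

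The alternative activation list held several higher genes. Of its 27 genes 17 were tested, and 10 (against 5.2% of all genes) were higher and 1 (against 5.47%) lower, with a median of 1.04, beside medians of 0.98 in R1, 0.73 in Other R2, and 1.99 in B cells. Of the 10, 4 reached the minimum of 50 UMIs only through the Vsir-/- library and so had to be higher, and the 1 lower gene reached it only through WT. The median was 0.532 with a minimum of 200 UMIs and 0.325 after thinning to 1000 UMIs per cell. Clec10a, a lectin receptor, was found in 100 of 456 WT and 43 of 168 Vsir-/- cells, with a log2 ratio of 1.42. In Vsir-/-, 1 cell held 32 of its 139 UMIs, and without the highest cell of each library it stood at 29.4 and 64.5 CPM. After thinning, Clec10a was found in 4.65% of WT and 3.77% of Vsir-/- cells. Mgl2, a lectin of MHC class II-positive macrophages and dendritic cells, had 7 UMIs in 2 cells and 173 UMIs in 13 cells. Ccl17, a chemokine for Ccr4-bearing T cells, had 0 UMIs in the whole WT library and 51 UMIs in 3 cells of the Vsir-/- cluster, all 3 with Mgl2 as well, and it stood at 30.4 CPM there and 76.2 CPM in Vsir-/- B cells. Of the 51 UMIs, 34 lay in 1 cell, and without that cell the cluster's level was 10.2 CPM. Igf1, a growth factor, had 1 UMI in WT and 57 UMIs in 18 Vsir-/- cells, and it was higher in all 5 clusters. C1q UMIs were found in 9 of the 13 Mgl2+ cells. Dendritic cells also carry MHC class II, Mgl2, and Ccl17. Their marker list, with 4 of 12 genes tested, summed to 120 CPM in WT and 110 CPM in Vsir-/-, and 1 gene was higher and 1 lower. Ccr7, its most abundant gene in WT, stood at 49.9 and 4.78 CPM and reached 50 UMIs only through WT, Batf3, a transcription factor, stood at 34.8 and 50.7 CPM, and Cd209a, a lectin, stood at 13 and 26.3 CPM. In Vsir-/-, 1 cell held 21 of the 44 Cd209a UMIs. Without the highest cell of each library, Cd209a stood at 9.13 and 13.8 CPM. In each library 2 genes of the list had 0 UMIs in the cluster. The part of dendritic cells in the MHC class II, Mgl2, and Ccl17 levels was not tested.

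Saa3, an acute-phase protein that activated macrophages secrete, shows how far 1 cell can carry a sum. It had 334 UMIs in 24 WT cells and 1606 UMIs in 33 Vsir-/- cells, and 1 Vsir-/- cell held 977 of these. WT thus had 76.0 CPM, and Vsir-/- had 959 CPM, or 380 CPM without that cell. For Mmp12, a macrophage elastase with 12 and 107 UMIs, 82 UMIs lay in 1 Vsir-/- cell, and the level was 63.9 CPM with and 15.2 CPM without it. Lyz1, at 9.33 and 127 CPM, and AA467197, at 4.55 and 242 CPM, kept 86.3 and 156 CPM without their highest cell. Fn1 kept 1296 CPM.

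**Figure D3:**
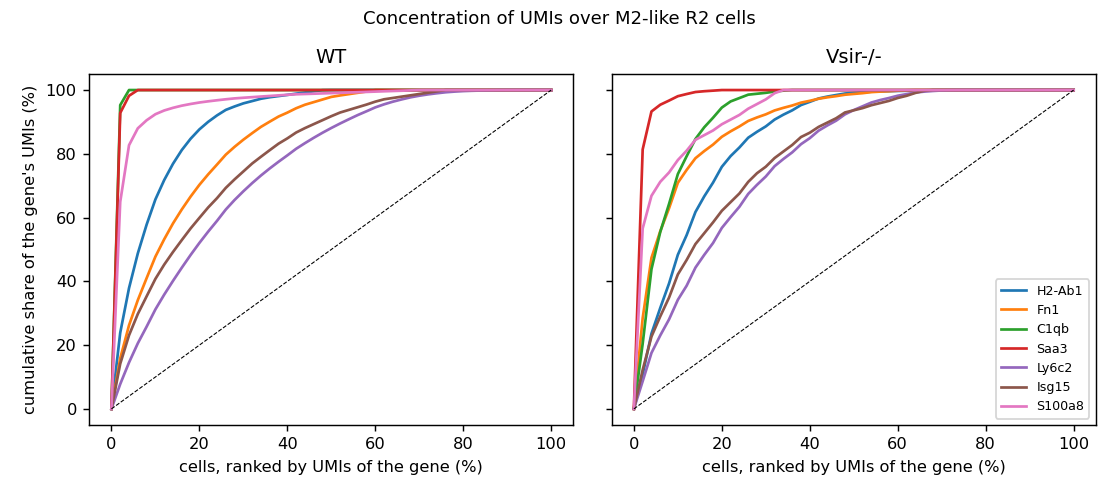
Cumulative share of a gene's UMIs (y axis, percent) over the M2-like R2 cells ranked from the most to the fewest UMIs of that gene (x axis, percent), for 7 genes in each library; the dashed line is an even spread. Ly6c2 and Isg15 UMIs were spread over many cells in both libraries, while Saa3 UMIs lay almost wholly in the top 10% of cells.

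Genes of lipid-handling and injury-associated macrophages were higher as a group, with 11 of 19 higher (against 5.2% of all genes, and 2 of the 11 tested only through Vsir-/-), 0 lower, and a median of 1.12, beside 0.72 in R1, 0.64 in Other R2, and 2.94 in B cells. Apoe, which carries lipids, stood at 1033 and 2502 CPM, Lpl, the lipoprotein lipase, at 53.7 and 233 CPM, and Trem2, a lipid receptor, at 56.5 and 126 CPM. In contrast, Lgals3 differed little, at 2024 and 1833 CPM. Spp1, which encodes osteopontin, stood at 29.8 and 530 CPM, yet it reached 3012 CPM in Vsir-/- B cells and 0.287 CPM in WT B cells, and its UMIs were found in 97.6% of the Vsir-/- cells. Cd63 followed the same course, with 115 CPM in the cluster and 427 CPM in B cells of the Vsir-/- library. Subtraction of the Vsir-/- B cell profile took more Spp1 than the cluster held. The log2 ratio of Spp1 thus went from 4.15 to -6.3, a value set by the UMIs added to each sum and not by a measured level. The median of the list was 0.98 after the subtraction.

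Chemokines included several higher genes. Of 21 genes 14 were tested, and 7 (against 5.2% of all genes) were higher and 0 lower, with a median of 1.05, beside 0.72 in R1, 1.33 in Other R2, and 3.86 in B cells. Of the 7, 5 reached the minimum of 50 UMIs only through the Vsir-/- library and so had to be higher, and the median was 0.56 with a minimum of 200 UMIs. With merged symbols and without genes that differed alike in all 5 clusters, 3 of 10 were higher, with a median of 0.56. Cxcl2, which attracts neutrophils, stood at 321 and 794 CPM, but was found in 36.18% of WT and 31.55% of Vsir-/- cells. In Vsir-/-, 1 cell held 215 of 1330 Cxcl2 UMIs, and without the highest cell of each library it stood at 295 and 675 CPM. Ccl6 stood at 629 and 1096 CPM. Ccl5, which T and NK cells also make, stood the other way at 665 and 336 CPM, with a log2 ratio of -0.98, and of -4.98 in Ly6c2+ MHC-II- cells. In Vsir-/-, 1 cell held 212 of 563 Ccl5 UMIs. Without the highest cell of each library, Ccl5 stood at 590 and 211 CPM. Cxcl9, an interferon-γ-induced chemokine for T cells, had 13 UMIs in 10 WT cells and 188 UMIs in 12 Vsir-/- cells, or 2.96 and 112 CPM, and 34.3 CPM in Vsir-/- B cells. Cxcl1 had 0 UMIs in the whole WT library and 90 UMIs in the Vsir-/- cluster, at least 78.7-fold higher by a floor of 3 counts, and it was also higher in the other 4 clusters.

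Most interferon-γ-induced genes differed less than 2-fold. Of 32 tested genes, Cxcl9 among them, 7 (against 5.2% of all genes) were higher and 0 lower, with a median of 0.32, beside 0.42 in R1 and 0.67 in Other R2. Without cells of more than 2 T, B, or NK cell UMIs, the median in M2-like R2 was 0.0663. Of the 32, 4 reached 50 UMIs only through the Vsir-/- library, among them 2 of the 7. Psmb8, an immunoproteasome subunit, stood at 651 and 723 CPM. Iigp1, an interferon-induced GTPase, had 38 and 91 UMIs and was higher in all 5 clusters. For the interferon-γ receptor and its signaling genes, 0 of 7 were higher and 0 lower, with Ifngr1 at 383 and 316 CPM. Classical activation genes gave 2 of 14 higher (against 5.2%), 1 of them tested only through Vsir-/-, and 0 lower (median 0.25), with Il1b at 673 and 560 CPM and Socs3 at 252 and 243 CPM. MHC class I genes gave 0 of 16 higher and 1 lower (against 5.47%), H2-Q6, with B2m at 3105 and 3660 CPM.

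Type I interferon genes were lower in the Vsir-/- cluster. Of 40 tested genes 14 (against 5.47% of all genes) were at least 2-fold lower and 0 higher, and all 40 had a log2 ratio below 0, with a median of -0.91. Isg15, a ubiquitin-like protein, stood at 494 CPM (473 to 515) in WT and 263 CPM (239 to 289) in Vsir-/-. Irf7, which amplifies type I interferon, stood at 509 and 242 CPM, and Oasl2, an antiviral OAS-family protein, at 312 and 140 CPM. Ifi211 stood at 308 and 120 CPM, Ifit1 at 97.9 and 31.6 CPM, and Slfn4 at 79.2 and 10.7 CPM. The most abundant members differed less, with Ifitm3 at 6152 and 4880 CPM and Ifi27l2a at 5347 and 3128 CPM. Mx1 had 232 and 0 UMIs, but it had 0 UMIs in the whole Vsir-/- library and 503 in WT. Without such genes and those that differed alike in all 5 clusters, 11 of 37 were lower and 0 higher, with a median of -0.81. The list's median was -0.27 in R1, -0.75 in Other R2, -0.91 in neutrophils, and 0.33 in B cells, so the lower median was shared with Other R2 and neutrophils and not with B cells; the difference between clusters was not tested.

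Interferon-stimulated genes carry a response element (ISRE) that the factor ISGF3 binds. The letters GAAANNGAAA or, on the other strand, TTTCNNTTTC were searched in the 250 bases before the start of each gene in the RefSeq promoter table (GRCm38.p6). They stood in 15 of the 32 type I interferon genes that matched the table (46.9%), in 3.46% of all 27025 genes, and in 2.98% of all 32851 promoters. Among the genes at least 2-fold lower, 5 of 12 had the motif, and among the rest 10 of 20. The windows below are those of the 4 most abundant genes that were at least 2-fold lower and had a match, with the ISRE letters in capitals and the gene's strand read 5′ to 3′.
Ifi211, chr1:173913050-173913107, minus strand: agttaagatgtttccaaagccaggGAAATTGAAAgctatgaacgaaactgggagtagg
Oas1a, chr5:120907526-120907563, minus strand: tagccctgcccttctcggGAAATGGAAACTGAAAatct
Oas3, chr5:120777701-120777758, minus strand: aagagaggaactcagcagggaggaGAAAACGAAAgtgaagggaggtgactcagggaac
Rsad2, chr12:26456539-26456596, minus strand: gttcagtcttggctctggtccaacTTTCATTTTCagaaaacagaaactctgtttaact
The motif nearest to the start began 37, 14, 75, and 120 bases before it, in that order, and the Oas1a window held 2 overlapping matches, of which the first began 20 bases before the start. Oas1a has close paralogs, between which reads can be split, so its count is uncertain.

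MHC class II promoters carry another element, the Y box, which binds the factor NF-Y. The letters CTGATTGG, or CCAATCAG on the other strand, stood in 3 of 7 matched MHC class II genes (42.9%), in 4.43% of all genes, and in 0 of the 32 type I interferon genes. The windows of H2-Aa and H2-Eb1 are given below, with the Y box in capitals. Both genes were higher in Vsir-/-. H2-Ab1, which was also higher, was searched as well, and no match was found. The matches were not split by higher and lower genes.
H2-Aa, chr17:34287843-34287898, minus strand: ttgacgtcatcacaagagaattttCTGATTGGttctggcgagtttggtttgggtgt
H2-Eb1, chr17:34305781-34305836, plus strand: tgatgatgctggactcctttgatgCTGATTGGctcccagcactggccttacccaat
The interferon-γ-induced list, of which no gene was lower, had the ISRE in 11 of 22 matched genes (50%) and the Y box in 5 (22.7%). These matches are a description of the sequence and not of binding.

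The interferon difference was also present among cells of the same class. In Ly6c2+ MHC-II- cells, 14 of 40 type I interferon genes were lower and 0 higher, with a median of -0.67, while 5.18% of all 6200 genes tested there were lower and 2.55% higher. Isg15 was lower in each of the 4 classes. It stood at 478 and 269 CPM in Ly6c2+ MHC-II- cells (log2 ratio -0.82, -1.07 to -0.59) and at 637 and 408 CPM in Ly6c2+ MHC-II+ cells. The Ly6c2- MHC-II+ cells had 331 and 225 CPM, with the weakest ratio (-0.56, -1.0 to -0.10), and the cells with neither had 359 and 129 CPM. Irf7, Oasl2, and Ifi211 were also lower in all 4 classes, with intervals below 0 in each. For Ifit1 the interval in Ly6c2- MHC-II+ cells included 0 (-0.82, -1.81 to 0.20).

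The medians of several other lists were lower among these cells, over fewer genes. Over the 8 alternative activation genes tested in both sets, the median was 0.53 in all cells and -0.18 in Ly6c2+ MHC-II- cells. It was 0.36 and 0.15 over 8 complement genes, which did not include the C1q chains, and 0.39 and -0.46 over 9 resident macrophage genes. C1qb had a log2 ratio of 2.24 (1.09 to 3.4) in this class, against 4.19 over all cells. It came from 14 and 15 UMIs, fewer than the minimum used in counts of genes. The class level was 5.05 CPM in WT, above the 2.01 CPM of WT B cells. In Vsir-/- it was 23.9 CPM, below the 83.9 CPM of Vsir-/- B cells. Apoe turned over, from a log2 ratio of 1.28 in all cells to -1.32. The markers Lyz2, Ccr2, Ly6c2, Fn1, and F13a1 had log2 ratios of -0.16, -0.02, -0.14, 0.27, and 0.22 there, all closer to 0 than over all cells, and Chil3 had 0.44 (0.31 to 0.57), against -0.28 over all cells. For Fn1, the ratio was 2.07 in Ly6c2- MHC-II+ cells and 2.91 in cells with neither, and -0.03 (-0.41 to 0.33) in Ly6c2+ MHC-II+ cells. The higher Fn1 of the Vsir-/- cluster thus lay largely in the classes without Ly6c2.

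**Figure D4:**
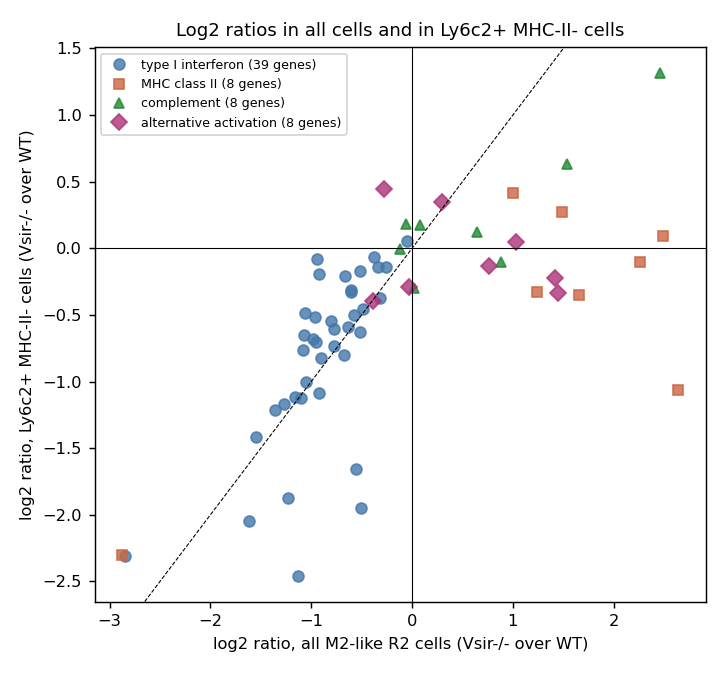
Log2 ratio of CPM, Vsir-/- over WT, over all M2-like R2 cells (x axis) and over Ly6c2+ MHC-II- cells alone (y axis); each point is a gene of 4 lists with 50 or more UMIs in both sets, and the dashed line marks equal values (Mx1, with 0 UMIs in the Vsir-/- library, is not drawn). The 39 type I interferon genes lie below 0 on the x axis and mostly below 0 on the y axis, on both sides of the line and some far from it (Ifi44 at -1.13 and -2.46), while MHC class II genes with ratios above 1 over all cells lie below 0.5 on the y axis, where the class itself limits the UMIs of H2-Aa, H2-Ab1, and H2-Eb1.

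**Figure D5:**
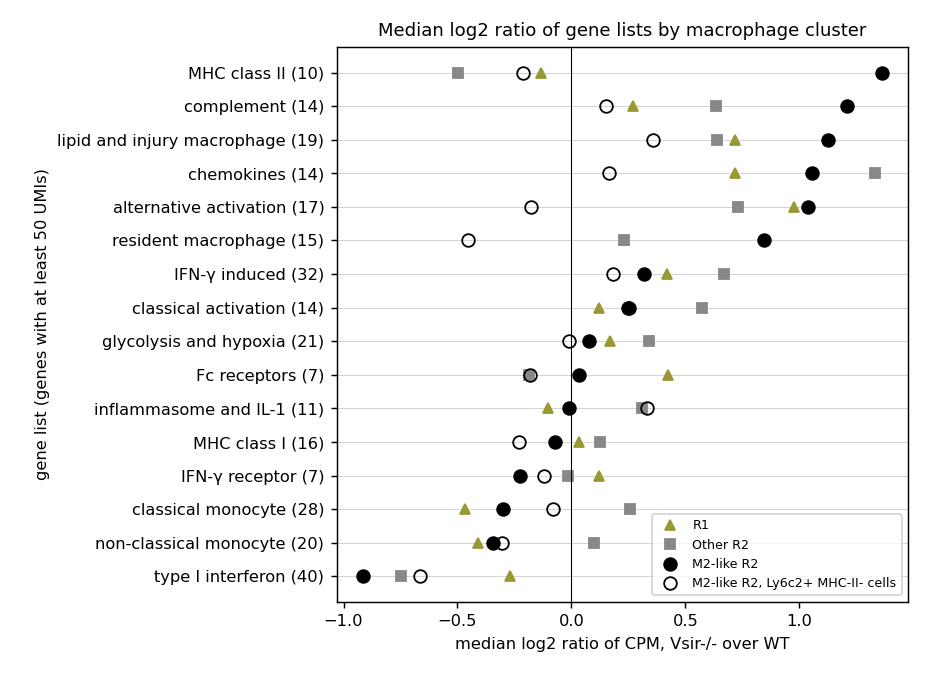
Median log2 ratio of CPM, Vsir-/- over WT (x axis), of 16 gene lists (y axis, with the number of genes tested in M2-like R2); filled circles are M2-like R2, open circles its Ly6c2+ MHC-II- cells, in which fewer genes of most lists were tested, triangles R1, and squares Other R2. The type I interferon list has the lowest median in M2-like R2 (-0.91), and the MHC class II list has the highest there (1.36) with medians below 0 in the other clusters.

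Most monocyte genes differed less than 2-fold. Of 28 classical monocyte genes 1 was higher and 4 lower (against 5.2% and 5.47% of all genes), with a median of -0.30, and of -0.0143 after subtraction of the B cell profile, and the 1 higher gene reached 50 UMIs only through Vsir-/-. Plac8, a protein abundant in monocytes, stood at 6773 and 4897 CPM, and at 7079 and 6933 CPM within Ly6c2+ MHC-II- cells. The lower genes included Lcn2 (105 and 30.4 CPM), which neutrophils also make, and its log2 ratio was -1.78 over all cells and 0.443 without cells of over 1% S100a8 and S100a9 UMIs. Of 20 genes of non-classical, patrolling monocytes 1 was higher and 1 lower, close to the shares of all genes, with a median of -0.35, each of them tested only through the library where it was high, and Cx3cr1 stood at 228 and 236 CPM.

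Many of the lowest genes in Vsir-/- were those of neutrophils, when genes had 100 or more UMIs in all, 4 or more in each library, and at least 3 times the CPM of lymphocytes where they were high. S100a8 and S100a9, the calprotectin subunits, stood at 2204 and 1861 CPM in WT and at 122 and 40.6 CPM in Vsir-/-. The 10% of WT cells with the most held 92.2% of S100a8 UMIs, and 1 cell held 1821 of 9684. For Camp, a granule peptide of neutrophil precursors, 1 WT cell held 443 of 448 UMIs. In 67 WT cells and 0 Vsir-/- cells the pair took over 1% of UMIs, and without those cells the pair summed to 374 CPM in WT and 163 CPM in Vsir-/-. The whole list of neutrophil genes summed to 4645 and 263 CPM. Retnlg, Wfdc21, Hdc, Ifitm1, and Lrg1 were among the 12 lowest as well. Coro1b and Rnf149 were lower in all 5 clusters. Transcripts of lymphocytes followed the same direction: Igkc stood at 572 and 8.95 CPM and Gzma at 411 and 87.2 CPM. More than 2 UMIs of T, B, and NK cell genes occurred in 331 of the 456 cells of WT and in 36 of the 168 cells of Vsir-/-. Without such cells, 154 genes rather than 427 were lower, and the type I interferon median was -1.04.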

How the data were processed

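Kidney cells of 2 libraries, 1 per genotype, were profiled by droplet RNA sequencing. The authors aligned and counted reads with Cell Ranger 3.1.0 and clustered cells with Seurat 3.2.3 in R 4.0.3, and the labels name the mm9 build. UMI counts per gene and cell were used as the authors deposited them. The deposited percent of mitochondrial UMIs served as an alternative filter, and the deposited UMAP scores, which place each cell on the authors' map, were not analysed. Doublet removal by the authors was not given in the sources used here, and no doublet caller was run. Counts were summed per cluster and library in Python 3.11.15 with numpy 2.4.6, scipy 1.17.1, and pandas 2.3.3, and figures were drawn with matplotlib 3.10.9. Genes with 50 or more UMIs were compared, with 0.5 UMIs added. Intervals were exact Poisson for sums, Clopper-Pearson for shares, and conditional binomial for ratios. The calculation was tested on simulated data. Named genes were Vsir and the markers, the 12 highest and 12 lowest genes with 100 or more UMIs, 4 or more in each library, and at least 3 times the lymphocyte CPM, the 5 at either end without that condition, members of each list, and the 15 most particular to the cluster. The text names further list members after their values were seen. The members and lists were chosen with earlier results of these data known. Depth filters, thinning to 1000 UMIs, denominators, pseudocounts, cell filters, free RNA, and merged symbols were tried as alternatives. Some genes are not reported here.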

Additional observations from a re-analysis of the deposited data

Results flagged for a closer look

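For 6 genes, the libraries differed in opposite directions in M2-like R2 and another macrophage cluster, for 5 genes in R1 and for 2 in Other R2. The difference between clusters was not tested, since each cluster of a genotype is 1 library. Ifi44, an interferon-induced gene, had a log2 ratio of -1.13 in M2-like R2 (175 UMIs in WT and 30 in Vsir-/-) and of 2.17 in R1 (10 and 108 UMIs). Rsad2, an antiviral enzyme, stood at -1.23 in M2-like R2 (451 and 73 UMIs), at 1.87 in R1 (27 and 231 UMIs), and at 1.2 in Other R2 (62 and 86 UMIs). These are type I interferon genes whose direction in the resident cluster was the reverse of that in M2-like R2. Mmp12 stood at 4.5 in M2-like R2 (12 and 107 UMIs, 82 of the latter in 1 cell) and at -2.31 in R1 (203 and 94 UMIs). Ctla2a, a protease inhibitor, stood at -1.76 (75 and 8 UMIs) and at 3.04 in R1 (6 and 123 UMIs). Malt1, a signaling protease, stood at 1.51 (397 and 432 UMIs) and at -1.77 in R1 (83 and 56 UMIs). Ciita stood at 1.24 (188 and 169 UMIs) and at -1.26 in Other R2 (65 and 16 UMIs).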

How the results depend on the processing

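No paired analysis was possible because each genotype was 1 library and no replicate numbers were given. The cause of the changes below was not tested. The counts were 406 genes higher and 427 lower, whereas thinning to 1000 UMIs per cell gave 64 and 89, a minimum of 20 UMIs gave 791 and 742, a minimum of 200 UMIs gave 132 and 135, and merged symbols without genes alike in all 5 clusters gave 231 and 228. In Ly6c2+ MHC-II- cells 158 were higher, without cells of more than 2 T, B, or NK cell UMIs 154 were lower, and after subtraction of the B cell profile from the Vsir-/- sums 759 were lower. Thinning moved the medians of alternative activation to 0.325, MHC class II to 1.9, lipid and injury genes to 1.49, and complement to 2.01. A minimum of 200 UMIs moved alternative activation to 0.532, MHC class II to 1.65, and complement to 0.88. Leaving out cells above the 95th percentile of UMIs moved alternative activation to 0.521 and complement to 0.886, and leaving out cells with lymphocyte UMIs moved alternative activation to 1.41 and interferon-γ-induced genes to 0.0663. The mean of single cells moved lipid and injury genes to 1.39 and complement to 0.536, merged symbols without genes alike in all 5 clusters gave 1.65 for MHC class II, where the 3 lower genes were no longer counted, and cells with at most 1% S100a8 and S100a9 UMIs gave 1.46 for complement and a log2 ratio of 0.443 for Lcn2. Subtraction of the B cell profile, scaled to the 34 tubule genes without Napsa and Ass1, took 24.1% of the Vsir-/- UMIs. The subtraction moved classical monocyte genes to -0.0143, type I interferon genes to -0.661, complement to 1.49, and the 6 markers to 0.0466. For Spp1 it took more than the cluster held, so the resulting -6.3 is set by the 0.5 UMIs added. In Ly6c2+ MHC-II- cells, whose definition limits H2-Aa, H2-Ab1, and H2-Eb1 and where fewer genes were tested, medians were -0.18 for alternative activation, -0.214 for MHC class II, -0.456 for resident macrophage genes, 0.101 for the markers, 0.356 for lipid and injury genes, and 0.149 for complement. Log2 ratios there were -1.32 for Apoe, -0.353 for Cd74, -0.697 for Cxcl2, -2.21 for Ecm1, -0.104 for H2-Aa, and -0.0221 for Saa3, and Eng stood at -0.752 after thinning. The type I interferon median was below 0 in every alternative run. The cluster's share was 60% and 31.3% of macrophages, and in Vsir-/- 11.6% of cells with a Ptprc UMI and 10.5% at a mitochondrial share of at most 5%. The Ly6c2+ MHC-II- share of WT was 51.1% with 1 MHC class II UMI as the limit, 45.2% with 2 Ly6c2 UMIs, and 49.3% without thinning (26.8% in Vsir-/-), and the Ly6c2- MHC-II+ share of WT was 13.7% with 2 Ly6c2 UMIs. Subtraction from WT was not run. Scaled to the 36 tubule genes it would take 175% of the WT UMIs, and scaled to the 34 genes without Napsa and Ass1 it would take 71.9%. The merged symbols, the Ly6c2+ MHC-II- cells, the limit on S100a8 and S100a9, and the subtraction from Vsir-/- alone were chosen after seeing the data.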

Other observations

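Iron and matrix genes held differences not described above. Fth1, the ferritin heavy chain, stood at 3150 CPM in WT and 7246 CPM in Vsir-/-, and Hmox1, which breaks down heme, at 95.2 and 197 CPM with 105 of 330 Vsir-/- UMIs in 1 cell. Of 7 tested iron and heme genes these 2 were higher (against 5.2% of all genes) and 0 lower. Fth1 was higher in each of the 4 classes, from 3095 and 4963 CPM in Ly6c2+ MHC-II- cells to 2942 and 14889 CPM in cells with neither transcript. Of 23 coagulation and matrix genes 9 were higher (against 5.2% of all genes) and 5 lower (against 5.47%), with a median of -0.01, and 4 of the 9 and 2 of the 5 reached 50 UMIs only through the library where they were high. Timp2, a protease inhibitor, stood at 34.8 and 101.5 CPM, and Mmp14, a membrane protease higher in all 5 clusters, at 7.28 and 74.0 CPM. Mmp8 and Mmp9, proteases that neutrophils also store, stood at 80.1 and 29.8 CPM and at 20.7 and 2.39 CPM. Proteases of the list thus went both ways.

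The counts below stand beside 5.2% of all genes higher and 5.47% lower. Cell cycle genes gave 4 of 9 higher, 2 of them tested only through Vsir-/-, and 0 lower, but 34 of 58 Mki67 UMIs and 40 of 61 Top2a UMIs of Vsir-/- lay in 1 cell each. Of 12 chemotactic receptors 3 were higher, among them the complement receptor C3ar1 (12.3 and 45.4 CPM), and 3 lower, among them Cxcr2 (20.7 and 0.597 CPM), a receptor of neutrophils, and 2 of the 3 lower genes were tested only through WT. Of 11 checkpoint genes 3 were higher, 1 of them tested only through Vsir-/-, and 1 lower, Vsir itself, tested only through WT, and Lilrb4a, an inhibitory receptor at 45.7 and 245 CPM, was higher in all 5 clusters. Of 29 receptors that the study chose on these samples, which is not independent evidence, 3 were higher and 2 lower, 1 of the latter tested only through WT. Genes that tissue dissociation raises gave 2 of 20 higher, Hspa1a (369 and 867 CPM) and Atf3 (439 and 935 CPM), and 0 lower. Glycolysis genes (21), Fc receptors (7), and Toll-like receptors (11) gave 0 higher and 0 lower. Inflammasome genes gave 1 of 11 higher, NF-κB feedback genes 2 of 20, and growth factor receptors 1 of 9, each with 0 lower.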
